A study of Mus musculus with 9 samples.

Results

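This account covers the response of irradiated, senescent mouse embryonic fibroblasts to shRela-2, the second of a pair of independent short hairpin RNAs against Rela. The 3 shRela-2 samples were set against the 3 samples with a scrambled control hairpin (shScr), 6 of the 9 samples of the series. The samples were chosen by the group and replicate number in their names. The other 3 samples carried the first hairpin, shRela-1, and enter where the hairpins are compared. All cells, the controls included, were C57BL/6 embryonic fibroblasts that had received gamma rays and then, at day 10, a lentivirus with a hairpin. No unirradiated or uninfected sample is analysed here, so every value describes senescent, infected cells. The sequence of shRela-2 is not stated in the sources used here, and it is 1 hairpin. Nothing in the labels ties replicates to separate cultures or embryos. The p-values here thus measure how far these libraries scatter, and that scatter may be technical. A dataset tag stands in the shScr titles and not in the shRela titles, so any library batch behind it cannot be told apart from the group.

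Rela encodes p65, the subunit of the transcription factor NF-kB that carries its main activation domain. In resting cells IkB proteins such as the product of Nfkbia hold NF-kB in the cytoplasm. IkB kinases release it to switch on genes of inflammation along with its own inhibitors, which form a feedback loop. Senescent fibroblasts, which have left the cell cycle for good, secrete chemokines, cytokines, growth factors and proteases, and NF-kB is a known driver of that secretion. The study behind the series concerns the factors that p21, the product of Cdkn1a, makes stressed cells secrete.

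Total counts ran from 49774667 to 67963506 in shScr and from 51071566 to 61056637 with shRela-2. Of 24062 genes in the table, 15369 passed the filter on low counts and were tested. Levels are given in CPM, that is counts scaled by the TMM-adjusted total of each library. They compare samples for 1 gene, not genes with each other, since they are not corrected for length. In bulk RNA a lower level can mean fewer cells of a type or less RNA per cell, and these cannot be told apart. The pairs of controls that include shScr replicate 2 differed more (chi-square per degree of freedom 106 and 103) than the remaining pair (19.1), while shRela-2 pairs gave 17.2 to 27.9. Fibroblast markers were present in all 6 samples, with a summed level of 31090 to 33342 CPM in shScr and 30971 to 31499 CPM with shRela-2, and none of the 13 was at 0.

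Rela itself, the target, stood at 85.5, 83.2 and 86.8 CPM in shScr and 14.8, 13.5 and 13.4 CPM with shRela-2. The percentages of the shScr mean left in the 3 knockdown samples were 17.3, 15.9 and 15.7, with a mean of 16.3 ± 0.902% (SD, n = 3). The groups were far apart, so the labels and the target's level match. Its log2 fold change was -2.62 ± 0.05 (standard error, SE), with an adjusted p of 1.18e-09 by the quasi-likelihood test of edgeR, adjusted after Benjamini and Hochberg over all genes tested, the test behind every adjusted p below. With shRela-1 the log2 fold change of Rela against the same controls was -2.64, and the difference between the hairpins was 0.03 (adjusted p = 0.726). Rela lies on chromosome 19, 5637483 to 5648130, plus strand, in GRCm38 (mm10), and its transcript Rela-201 in GENCODE M21 has 11 exons.

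A gene is said to have risen or fallen with shRela-2 where its adjusted p against shScr is under 0.05. Of the genes tested, 4742 (30.9%) were called, 2371 (15.4%) that rose and 2371 (15.4%) that fell. Most changes were small. The median log2 fold change was 0.259 among genes that rose and -0.377 among those that fell, and -0.002 over all genes tested. A change of more than 2-fold was seen in 41 genes that rose (0.267% of those tested) and in 151 that fell (0.982%). Without regard to a test, the 3 shRela-2 samples all lay above the 3 shScr samples for 3462 genes (22.5%) and all below them for 3316 (21.6%). Same-numbered samples of the groups deviated together, and a fit with the replicate number as a block called 3414 genes that rose (22.2%) and 3416 that fell (22.2%). Without shScr replicate 2, the control in the pairs with the highest chi-square, 1911 rose and 2080 fell. Without shScr replicate 1 the numbers were 2087 and 2090, and without shScr replicate 3 they were 1863 and 1903.

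**Figure D1:**
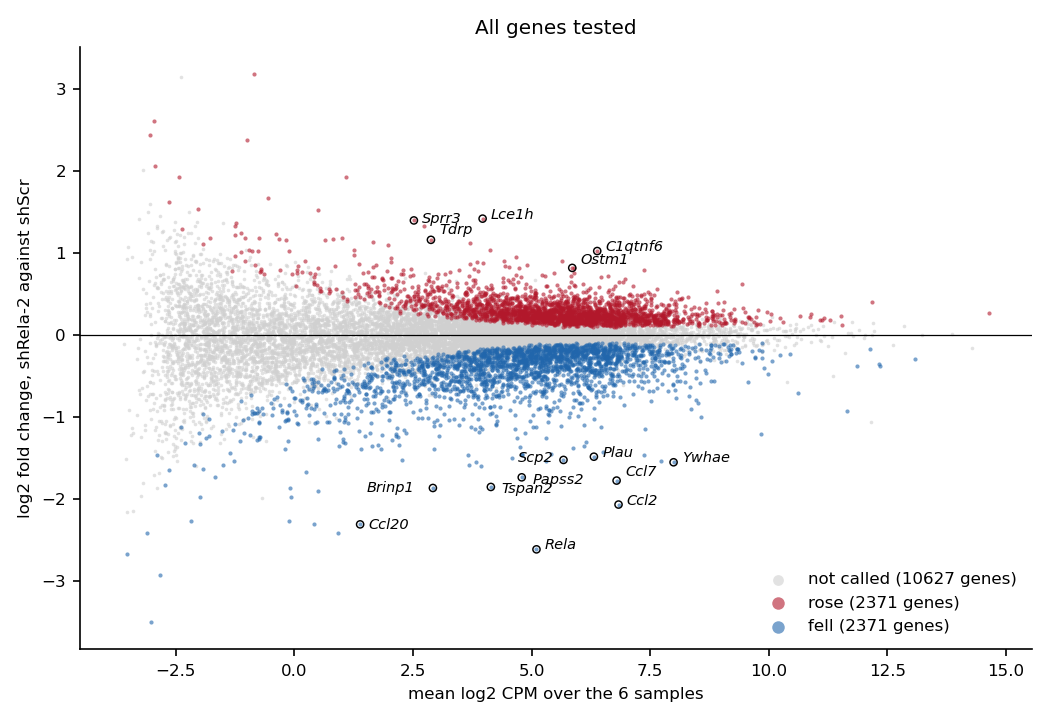
Each point is 1 of the 15369 genes tested, at its mean log2 CPM over the 6 samples (x axis) and its log2 fold change with shRela-2 against shScr (y axis). Red points rose, blue points fell and grey points were not called; falls reach further than rises among well expressed genes, with Rela at -2.62 and Ccl2 at -2.07, and 1 gene beyond 3.5 (Lcn2) is drawn at the edge.

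The 15 largest falls were taken among genes whose log2 CPM averaged 1 or more and whose groups did not overlap. They included those of Rela, of 4 chemokines and of genes with other roles. The chemokines were Ccl20 (-2.31), Ccl2 (-2.07), Ccl7 (-1.78) and Ccl11 (-1.59), all log2 fold changes. Tspan2, a tetraspanin of the cell membrane, stood at 35.4, 33.6 and 31.8 CPM in shScr and 9.03, 8.64 and 10.2 CPM with shRela-2, a log2 fold change of -1.86 ± 0.08 (SE; adjusted p = 2.64e-07). Papss2, which makes the activated sulfate used for proteoglycans, stood at 48.7, 53.8 and 49.5 CPM in shScr and 15.3, 14.5 and 15.8 CPM with shRela-2 (-1.74 ± 0.052, adjusted p = 3.54e-08). Ywhae, a 14-3-3 protein that binds phosphorylated partners, stood at 437, 438 and 438 CPM in shScr and 143, 143 and 161 CPM with shRela-2 (-1.56 ± 0.049, adjusted p = 4.55e-08). In these genes every shRela-2 sample lay far below every control, and the replicates of each group lay close together. Scp2, a peroxisomal sterol carrier, had a log2 fold change of -1.53 ± 0.046 (SE). The values were -1.87 for Brinp1, a gene of neuronal cells, and -1.60 for Cebpd, a C/EBP transcription factor of the inflammatory response. They were -1.56 for the connexin Gjb2, -1.54 for the zinc transporter Slc30a4 and -1.53 for the TNF receptor family member Tnfrsf26.

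Hairpins are cut by the microRNA machinery, and the short seed of the guide strand can pair with 3' untranslated regions (3' UTRs) and lower other transcripts. An earlier pass over these data found 1 heptamer, GAAGCTA, often in the 3' UTRs of genes that fell with shRela-2, so what follows describes that heptamer and is no test of it. Rela-201 holds it once, in the coding sequence of exon 11, and 8 of the 15 genes with the largest falls hold it in their 3' UTR. The sites below, with 11 bases on each side, are those of Rela and of genes described in the text, read from GENCODE M21 transcripts on GRCm38, and capitals mark the heptamer. The heptamer lies at chr19:5647255-5647261 (+) in Rela, chr3:102769033-102769039 (+) in Tspan2, chr19:32666412-32666418 and chr19:32666617-32666623 (+) in Papss2, and chr11:75765452-75765458 (+) in Ywhae. It lies at chr4:108044524-108044530 (-) in Scp2, chr4:68761815-68761821 (-) in Brinp1 and chr16:15888271-15888277 (+) in Cebpd. It lies at chr1:169498719-169498725 (-) in Nuf2, chr5:33640626-33640632 (-) in Slbp and chr8:64718562-64718568 (-) in Msmo1. Scp2 also holds it upstream of the 3' UTR, at chr4:108055490-108055496 (-), a site that is not printed below.
Rela, coding sequence: tggagtaccctGAAGCTAtaactcgcctg
Tspan2, 3' UTR: tcaggatattaGAAGCTAaaataattttc
Papss2, 3' UTR, first site: attattaatgaGAAGCTAaaacttgattt
Papss2, 3' UTR, next site: tccgatttcctGAAGCTActtagtgaagc
Ywhae, 3' UTR: acgtgtaacttGAAGCTAatttgtactac
Scp2, 3' UTR: ctgtgcttgatGAAGCTActatgtcaatg
Brinp1, 3' UTR: ttcatttgttgGAAGCTAacgtgttctag
Cebpd, 3' UTR: ggactgcgagaGAAGCTAtattaatcttt
Nuf2, 3' UTR: atagttatattGAAGCTAatggaagtacc
Slbp, 3' UTR: aagttgtaaatGAAGCTAaatgcagtgga
Msmo1, 3' UTR: ttacctgaagtGAAGCTAtcacgaagtga

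Of 14399 tested genes with an annotated 3' UTR, 1274 (8.85%) hold the heptamer there. The share was 20.5% of the genes that fell (477 of 2331), 4.49% of those that rose (105 of 2337) and 44.1% of those that fell more than 2-fold (64 of 145). Genes with no heptamer in the 3' UTR had a median log2 fold change of 0.010, and 14.1% of them fell. With 1 heptamer the median was -0.160 and 36% fell (1157 genes), and with 2 or more it was -0.260 and 52.1% fell (117 genes). The median was thus lower, and the share of falls higher, with more copies in the 3' UTR. Genes that hold it upstream of the 3' UTR only had a median of -0.099 (1841 genes), and those with none in the transcript 0.028. The shorter hexamer AAGCTA without the heptamer went with a median of 0.003 (2772 genes). The other hexamer within it, GAAGCT, was not counted without the heptamer.

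Long 3' UTRs hold more heptamers of any kind: the median length was 1056 bases with none, 2512 with 1 and 3926 with 2 or more. Within 3' UTRs of 500 to 2000 bases the median log2 fold change was 0.013 without the heptamer and -0.268 with it (409 genes). In the 3 same-numbered pairs of samples the genes with at least 1 heptamer had medians of -0.171, -0.171 and -0.161. With shRela-1, set against the same controls, the medians for 0, 1 and 2 or more heptamers were 0.002, 0.015 and 0.000. The difference between shRela-2 and shRela-1 had a median of -0.142 for 1 heptamer and -0.274 for 2 or more. Among 15875 heptamers found in at least 100 of these 3' UTRs, GAAGCTA ranked 1 by mean log2 fold change times the square root of the number of genes. Ranks 2 to 4 were TGAAGCT (median -0.106, 2042 genes), AGAAGCT (-0.069, 2246 genes) and GAAGCTG (-0.049, 2515 genes). All of these share the letters GAAGCT with it, so the lower values were not confined to the full heptamer. Some of their genes may also hold GAAGCTA. Whether it matches the seed of this hairpin was not tested, since the hairpin's sequence is not given.

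**Figure D2:**
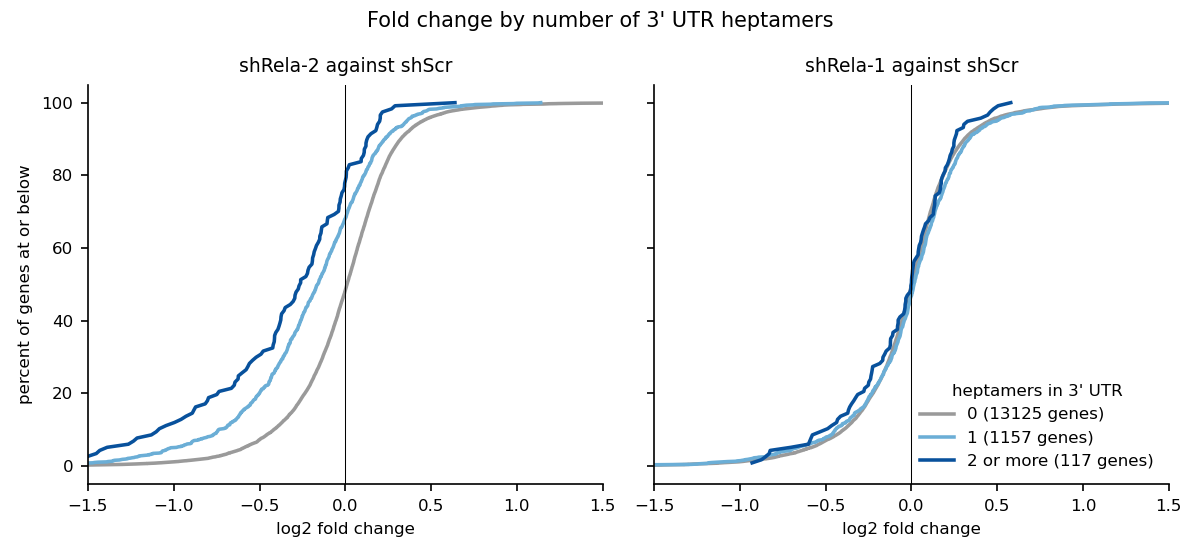
The curves give the percent of genes (y axis) at or below each log2 fold change (x axis), for 0 (13125 genes), 1 (1157 genes) and 2 or more (117 genes) copies of GAAGCTA in the 3' UTR. With shRela-2 (left) the curves move to lower values with each step, to medians of 0.010, -0.160 and -0.260, and with shRela-1 (right) they lie on each other.

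Lists of genes with a shared role are described by their counts and medians, and nothing particular to a list is read from them. The shares called in each list stand against 15.4% of all genes tested that rose and 15.4% that fell, or 22.2% each with the block, and its median against -0.002. Among NF-kB subunits, inhibitors and feedback targets, all 34 were tested, 18 fell (52.9%) and 1 rose (2.94%), with a median log2 fold change of -0.245. Rela, the target, is 1 of the 18. Here and below, a gene counts as holding the heptamer only where it lies in the 3' UTR. Sites upstream of the 3' UTR, as in Rela, were not counted. Of the 30 members without the 3' UTR heptamer, Rela among them, 16 fell. Nfkbia, the IkB alpha inhibitor that NF-kB induces, stood at 29.5, 30.5 and 31.9 CPM in shScr and 20.1, 19.3 and 19.9 CPM with shRela-2. Its log2 fold change was -0.63 ± 0.063 (SE; adjusted p = 4.59e-05), and with shRela-1 it was -0.46. Tnfaip3, the A20 enzyme that shuts NF-kB signalling down, stood at 15.5, 13.8 and 14.8 CPM in shScr and 7.604, 6.29 and 7.69 CPM with shRela-2, a log2 fold change of -1.03 ± 0.088 (SE; adjusted p = 1.76e-05), against 0.08 with shRela-1. The groups did not overlap for either gene, and the Tnfaip3 3' UTR holds 1 heptamer.

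The partner subunits moved less than Rela. Relb had a log2 fold change of -0.60 ± 0.082 (SE), Nfkb1, the precursor of p50, -0.26 ± 0.039, and Nfkb2, the precursor of p52, -0.25 ± 0.053, and all 3 fell. Rel had -0.17 ± 0.13 and was not called (adjusted p = 0.366). Among other genes of this list, Nfkbie (-0.64), Nfkbib (-0.20), Nfkbiz (-0.60), Bcl3 (-0.83), Tnip1 (-0.32) and the RNase Zc3h12a (-0.60) fell. Tnfaip2 stood at 87.8, 97.02 and 91.5 CPM in shScr and 57.3, 59.6 and 59.9 CPM with shRela-2, a log2 fold change of -0.64 ± 0.062 (SE; adjusted p = 3.8e-05). Csf1, the growth factor of macrophages, stood at 967, 871 and 947 CPM in shScr and 660.1, 563 and 644 CPM with shRela-2, a log2 fold change of -0.58 ± 0.063 (SE; adjusted p = 8e-05). Csf1 had 0.50 with shRela-1, the other direction. Known targets that were not called include Icam1 (-0.15), Vcam1 (0.05), Sod2 (-0.03) and Ptgs2 (-0.08), of which the block called Icam1 (adjusted p = 0.00614) and Ptgs2 (adjusted p = 0.049) as lower. The only member that rose was Gadd45b (0.16, adjusted p = 0.0286), and leaving out shRela-2 replicate 2 or 3, or shScr replicate 1 or 3, ended that call. With the block 2 members rose, as they did without shScr replicate 2.

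NF-kB binds kB sites, and promoters were searched for letters like them. Whether such sites bear on the falls was not tested. The sequences below are the 250 bases upstream of the annotated starts of 3 genes, from RefSeq on GRCm38.p6. The genes are Nfkbia and the chemokines Cxcl1 and Cxcl2, shown as examples that fell and hold a match. Capitals mark matches to GGGNNTTNCC on either strand, where N is any base. The stretches lie at chr12:55492648-55492897 (-), chr5:90890995-90891244 (+) and chr5:90903649-90903898 (+).
Nfkbia: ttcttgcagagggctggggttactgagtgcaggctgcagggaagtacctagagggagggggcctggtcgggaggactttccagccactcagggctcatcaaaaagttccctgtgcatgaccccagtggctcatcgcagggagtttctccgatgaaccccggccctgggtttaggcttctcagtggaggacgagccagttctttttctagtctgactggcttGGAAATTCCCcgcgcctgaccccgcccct
Cxcl1: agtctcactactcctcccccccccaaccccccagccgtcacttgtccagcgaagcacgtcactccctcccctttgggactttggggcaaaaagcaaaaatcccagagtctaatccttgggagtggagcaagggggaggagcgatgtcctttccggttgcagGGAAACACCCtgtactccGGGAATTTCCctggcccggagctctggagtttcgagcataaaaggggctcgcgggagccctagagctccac
Cxcl2: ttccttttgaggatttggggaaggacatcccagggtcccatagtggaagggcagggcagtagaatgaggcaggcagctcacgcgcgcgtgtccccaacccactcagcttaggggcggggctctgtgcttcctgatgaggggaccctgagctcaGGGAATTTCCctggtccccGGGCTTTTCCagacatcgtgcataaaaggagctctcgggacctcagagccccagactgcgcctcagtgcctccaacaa

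Cxcl1 and Cxcl2 each hold a pair of matches close to the start, and Nfkbia holds 1. Over the 300 bases around the start (250 before to 50 after), 1480 of 27025 promoters in the RefSeq table (5.48%) hold the motif, and 6.31% of tested genes with a promoter there. The share was 7.05% of genes that fell and 5.58% of genes that rose. It was 13.5% of genes that fell more than 2-fold (17 of 126). In the NF-kB list 10 of 26 promoters held it, 7 of 14 among members that fell and 3 of 12 among the others. In the chemokine list 7 of 16 held it, 5 of 9 among those that fell and 2 of 7 among the others. A match is a description of the letters and not a bound site.

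Upstream of NF-kB, 7 of 37 receptors, adaptors and kinases rose (18.9%) and 5 fell (13.5%), shares near those of all genes, with a median of -0.011 (0.090 without shScr replicate 2). The block called 15 that rose and 9 that fell. Chuk, the IkB kinase alpha, had a log2 fold change of -0.30 ± 0.065 (SE; adjusted p = 0.00516). The receptors Tlr2 (-0.51), Il1rl1 (-0.68) and the IL-1 receptor accessory protein Il1rap (-0.46) fell. Ltbr, the lymphotoxin receptor, stood at 105, 102 and 103 CPM in shScr and 122, 132 and 123 CPM with shRela-2, a log2 fold change of 0.29 ± 0.043 (SE; adjusted p = 0.000628). The adaptors Traf6 (0.26), Ticam1 (0.26) and Tab1 (0.28) also rose.

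Chemokines, which draw immune cells to tissue, were the list with the lowest median of the 27. Of 26 genes 23 were tested and 13 fell (56.5%). None rose by edgeR, DESeq2 or limma-voom (1 was higher at an unadjusted p under 0.05). The median was -0.642, and 14 of the 23 had all 3 shRela-2 samples below the controls, beside 21.6% of all genes tested. Ccl2, which attracts monocytes, stood at 232, 218 and 253 CPM in shScr and 59.4, 56.2 and 51.6 CPM with shRela-2. Its log2 fold change was -2.07 ± 0.067 (SE; adjusted p = 4.76e-08) and each shRela-2 sample lay far below the lowest control. With shRela-1 the value for Ccl2 was -0.63, and the hairpins differed by -1.44 (adjusted p = 8.66e-08).

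The neighbouring genes Ccl7 and Ccl11 followed Ccl2 in direction. Ccl7, also an attractant of monocytes, stood at 227, 187 and 206 CPM in shScr and 73.5, 53.2 and 54.2 CPM with shRela-2 (-1.78 ± 0.13, adjusted p = 8.65e-06). Ccl11, which attracts eosinophils, stood at 27.001, 17.9 and 22.3 CPM in shScr and 9.19, 6.53 and 6.59 CPM with shRela-2 (-1.59 ± 0.17, adjusted p = 8.49e-05). Ccl12 had -1.68, Ccl9 -0.61 and Ccl3 -1.08. Ccl20 rested on few reads, 278, 416 and 369 counts in shScr and 59, 98 and 45 with shRela-2, and had -2.31 ± 0.29 (adjusted p = 0.000212).

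Among CXC chemokines, which attract neutrophils where they act through the CXCR2 receptor, Cxcl5 stood at 50.9, 39.03 and 49.99 CPM in shScr and 21.3, 14.9 and 15.01 CPM with shRela-2. Its log2 fold change was -1.45 ± 0.16 (SE; adjusted p = 9.57e-05), and with shRela-1 it was 0.40. Cxcl1 had 146, 228 and 136 counts in shScr and 42, 68 and 19 with shRela-2 (-1.90 ± 0.59, adjusted p = 0.0327). Cxcl2 had 66, 142 and 115 counts in shScr and 28, 23 and 30 with shRela-2 (-1.87 ± 0.26, adjusted p = 0.00041). Their levels were low in senescent cells, but the groups did not overlap. Cxcl14, a chemokine linked to p21, stood at 234, 244 and 212 CPM in shScr and 154, 177 and 153 CPM with shRela-2, a log2 fold change of -0.51 ± 0.069 (SE; adjusted p = 0.000354). With shRela-1 Cxcl14 had 0.07 (adjusted p = 0.513), and the hairpins differed by -0.58 (adjusted p = 7.59e-05). Not called were Cxcl12 (-0.03), Cxcl10 (-0.58) and Ccl5 (-0.64), and the block called Cxcl10 (adjusted p = 0.0413) and Ccl5 (adjusted p = 0.0328) as lower.

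Of 58 cytokines and growth factors 55 were tested, 11 fell (20%) and 1 rose (1.82%), with a median of -0.124 (-0.188 without shScr replicate 3). The block called 20 that fell and 8 that rose. Il6, the best known cytokine of senescent cells, stood at 3.85, 5.25 and 4.04 CPM in shScr and 1.29, 2.67 and 1.58 CPM with shRela-2. Its log2 fold change was -1.23 ± 0.25 (SE; adjusted p = 0.00344), and shRela-1 gave 0.29, with a difference between hairpins of -1.53 (adjusted p = 0.000582). Within each group replicate 2 was the highest, and the groups did not overlap. Tnfsf11, the osteoclast factor RANKL, stood at 5.03, 6.12 and 5.18 CPM in shScr and 2.35, 2.53 and 2.101 CPM with shRela-2 (-1.23 ± 0.12, adjusted p = 5.02e-05). Fgf7, a growth factor for epithelia, stood at 78.2, 86.2 and 76.6 CPM in shScr and 48.1, 49.96 and 41.2 CPM with shRela-2 (-0.79 ± 0.079, adjusted p = 4.69e-05). Inhba, the activin A subunit, stood at 330.5, 348 and 340.0 CPM in shScr and 205, 239.9 and 242 CPM with shRela-2 (-0.57 ± 0.059, adjusted p = 5.92e-05). Tnfsf11 and Inhba hold the heptamer. Smaller falls were those of Il11 (-0.47), Lif (-0.45), Tgfb1 (-0.40) and Igfbp5 (-0.52). Bdnf, a neurotrophin, was the member that rose (0.48 ± 0.051, adjusted p = 7.26e-05), and 2 rose without shRela-2 replicate 3.

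Secreted proteases and their inhibitors went both ways. Of 37, 36 were tested, 10 rose (27.8%) and 6 fell (16.7%), with a median of 0.147, and the block called 21 and 11. Plau, the urokinase plasminogen activator, stood at 148, 132 and 121 CPM in shScr and 46.5, 45.01 and 51.4 CPM with shRela-2, a log2 fold change of -1.49 ± 0.11 (SE; adjusted p = 6.41e-06). With shRela-1 the value for Plau was -0.54. Adam10, a sheddase of the cell surface, stood at 138, 142 and 138 CPM in shScr and 200.3, 202 and 191 CPM with shRela-2, a log2 fold change of 0.50 ± 0.036 (SE; adjusted p = 7.28e-06). Neither gene had overlapping groups. The metalloproteinases Mmp9 (-0.87) and Mmp12 (-0.84) fell. Mmp14 (0.28), the sheddase Adam17 (0.26), the inhibitor Timp2 (0.25) and Reck (0.71), a membrane inhibitor of metalloproteinases, rose. The members that fell were 3 without shRela-2 replicate 1 or shScr replicate 3.

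Complement and acute phase genes code for plasma proteins of innate defence. Of 34, 23 were tested, 7 fell (30.4%) and 1 rose (4.35%). The median was -0.213, and it ran from -0.396 without shRela-2 replicate 2 to -0.085 without shRela-2 replicate 1. The number that fell was 4 without shRela-2 replicate 3, shScr replicate 1 or shScr replicate 2, and 14 with the block. The number that rose was 0 without shScr replicate 2, shRela-1 replicate 2 or 3, or shRela-2 replicate 1, 2 without shRela-2 replicate 3 and 3 with the block. C3, the central complement component, stood at 7.26, 8.61 and 7.33 CPM in shScr and 3.38, 3.54 and 3.205 CPM with shRela-2 (-1.20 ± 0.13, adjusted p = 8.73e-05). Serpina3g, a protease inhibitor, stood at 14.7, 17.3 and 16.9 CPM in shScr and 7.58, 7.48 and 7.76 CPM with shRela-2 (-1.10 ± 0.099, adjusted p = 2.48e-05). Both had every shRela-2 sample below the lowest control. Saa3, serum amyloid A, had 107, 162 and 278 counts in shScr and 22, 36 and 45 with shRela-2 (-2.31 ± 0.38, adjusted p = 0.00107). Lcn2, which binds bacterial iron carriers, had 22, 16 and 22 counts in shScr and 0, 2 and 0 with shRela-2 (adjusted p = 0.000865). Low counts in these files are more often even than odd, and it is not stated if both reads of a fragment were counted, so such counts may stand for fewer molecules.

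**Figure D3:**
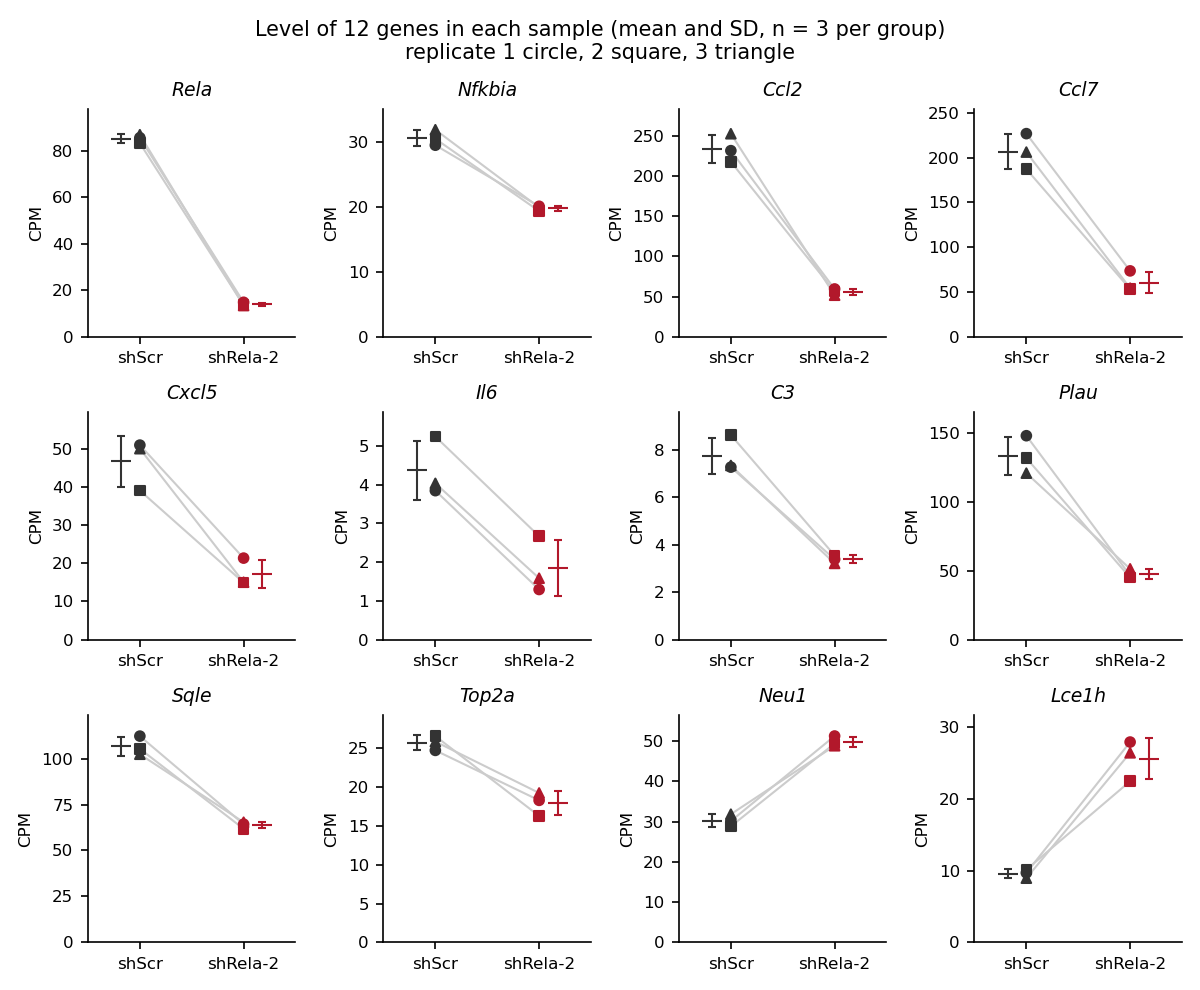
Level in CPM (y axes, from 0) of 12 genes in each shScr and shRela-2 sample, with lines joining samples of the same replicate number and bars for the mean and SD (n = 3 per group). Rela, Nfkbia, Ccl2, Ccl7, Cxcl5, Il6, C3, Plau, Sqle and Top2a were lower in every shRela-2 sample than in any control, and Neu1 and Lce1h were higher.

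Immune genes outside secretion gave few calls. Of 22 tested genes of MHC class I presentation, which shows peptides to T cells, 3 rose (13.6%) and 1 fell (4.55%), and the block called 7 and 2. The median was 0.104, and 0.004 without shRela-2 replicate 1. Without shRela-2 replicate 1, 3 fell. Erap1, which trims peptides, stood at 18.1, 19.9 and 18.995 CPM in shScr and 28.6, 27.6 and 23.8 CPM with shRela-2 (0.49 ± 0.081, adjusted p = 0.0011). H2-M3 had 0.72 ± 0.19 (adjusted p = 0.0138) and the chaperone Canx 0.16 ± 0.04 (adjusted p = 0.0126), while Pdia3 fell (-0.25). H2-M3 was no longer called without shScr replicate 2 (adjusted p = 0.0521) or without shRela-2 replicate 1 (adjusted p = 0.0541), and Canx without shRela-2 replicate 2 (adjusted p = 0.0536).

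Type I interferon response genes depended on the sample. Of 41 tested, 1 rose (2.44%) and none fell by edgeR without the block, DESeq2 or limma-voom (0 were lower at an unadjusted p under 0.05). The median was 0.129, and it ran from -0.274 without shRela-2 replicate 1 to 0.360 without shRela-2 replicate 3. The medians of the same-numbered pairs were 0.417, 0.043 and -0.399, so the pairs did not share a direction. The block called 4 that rose and 1 that fell. Ifih1, the MDA5 sensor of viral RNA, stood at 18.8, 16.8 and 18.1 CPM in shScr and 35.6, 21.4 and 18.2 CPM with shRela-2 and was not called (0.49 ± 0.21, adjusted p = 0.112), but was called with the block (adjusted p = 0.0121) and without shRela-2 replicate 3 (adjusted p = 0.0309). Its high sample was shRela-2 replicate 1. Without that library 0 members rose and 4 fell, and without shRela-2 replicate 3 the number that rose was 3. Trim25, a ubiquitin ligase, was the member called (0.29 ± 0.079, adjusted p = 0.0174), a call lost without shScr replicate 3 (adjusted p = 0.0678), shRela-2 replicate 1 (adjusted p = 0.0651) or shRela-2 replicate 2 (adjusted p = 0.0568).

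Genes of cell division were lower with shRela-2. All 80 genes of mitosis and cytokinesis were tested and 51 fell (63.7%), with a median of -0.525. None rose by edgeR, DESeq2 or limma-voom, and 0 were higher at an unadjusted p under 0.05. For 66 of the 80, the 3 shRela-2 samples all lay below the controls, beside 21.6% of all genes tested. The same-numbered pairs had medians of -0.491, -0.570 and -0.432. Without shScr replicate 2, 44 fell, and over all fits without 1 library 38 to 57 fell. Of the 75 members without the 3' UTR heptamer 46 fell (median -0.501).

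Top2a, the topoisomerase that untangles chromosomes, stood at 24.7, 26.6 and 25.9 CPM in shScr and 18.3, 16.3 and 19.2 CPM with shRela-2 (-0.52 ± 0.074, adjusted p = 0.000446). Smc2, a condensin subunit, stood at 21.98, 23.1 and 21.3 CPM in shScr and 9.36, 9.75 and 11.4 CPM with shRela-2 (-1.12 ± 0.092, adjusted p = 1.38e-05). Kif11, the motor that separates spindle poles, stood at 6.401, 7.29 and 7.18 CPM in shScr and 2.66, 2.66 and 3.51 CPM with shRela-2 (-1.24 ± 0.13, adjusted p = 7.59e-05). In all 3 the shRela-2 samples were lower than every control. Nuf2, a kinetochore protein, stood at 4.37, 4.46 and 3.91 CPM in shScr and 1.602, 1.4 and 1.87 CPM with shRela-2 (-1.39 ± 0.13, adjusted p = 3.52e-05). Tpx2, a spindle assembly factor, had -1.05 ± 0.11 (adjusted p = 6.76e-05) and the proliferation marker Mki67 -0.57 ± 0.091 (adjusted p = 0.000976). Nuf2, Kif11 and Tpx2 hold the heptamer in the 3' UTR, and Smc2, Top2a and Mki67 do not. The kinase of mitotic entry, Cdk1, had -0.15 ± 0.15 and its cyclin Ccnb1 -0.29 ± 0.13, and neither was called (adjusted p = 0.493 and 0.119), while the block called both as lower (adjusted p = 0.0244 and 0.0236).

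Many mitotic promoters carry a cell cycle homology region, at which the DREAM complex and the activator with B-Myb and FoxM1 act. As an example of a gene of this list that fell, the 250 bases upstream of Ccnb2, cyclin B2 (-0.63 ± 0.15, adjusted p = 0.00893), are shown, at chr9:70421555-70421804 (-) on GRCm38.p6 from RefSeq. Capitals mark TTTGAA, searched on both strands. Ccnb2 holds another match just past its annotated start, which this upstream stretch leaves out. The shares below were counted over the longer stretch around the start, which includes that match. Whether either match is a working cell cycle homology region was not tested.
Ccnb2: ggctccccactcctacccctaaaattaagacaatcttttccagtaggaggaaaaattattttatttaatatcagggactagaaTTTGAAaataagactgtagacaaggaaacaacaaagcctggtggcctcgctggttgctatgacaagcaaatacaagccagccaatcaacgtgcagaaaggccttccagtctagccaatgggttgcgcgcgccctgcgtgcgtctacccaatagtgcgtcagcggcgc

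The letters TTTGAA stand in 43 of 65 promoters of the mitosis list (66.2%), against 14.5% of tested genes and 20.2% of all promoters in the table. They stand in 28 of 41 promoters of members that fell and in 15 of 24 of the others. Members that fell and members that did not thus held it at like shares. The E2F-like motif TTCCCGC, also searched on both strands, stands in 20 of 53 promoters of the replication list (37.7%), against 9.26% of tested genes and 5.29% of all promoters. There it stands in 7 of 21 promoters of members that fell and in 13 of 32 of the others.

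Of 64 genes of DNA replication and nucleotide synthesis, all tested, 28 fell (43.8%) and 2 rose (3.12%), with a median of -0.270. For 41 the shRela-2 samples all lay below the controls, and of the 57 members without the 3' UTR heptamer 22 fell. Slbp, which binds the ends of histone messages, stood at 22.9, 22.2 and 21.9 CPM in shScr and 9.86, 8.87 and 10.8 CPM with shRela-2 (-1.18 ± 0.071, adjusted p = 2.56e-06) and holds the heptamer. Rpa1, which coats single-stranded DNA, stood at 55.2, 54.4 and 53.4 CPM in shScr and 36.03, 33.2 and 35.9 CPM with shRela-2 (-0.63 ± 0.038, adjusted p = 2.56e-06) and does not. Mcm3, a subunit of the replicative helicase, stood at 20.6, 21.3 and 21.2 CPM in shScr and 13.2, 12.3 and 14.3 CPM with shRela-2 (-0.67 ± 0.063, adjusted p = 3.4e-05). The groups did not overlap in these 3 genes. Pcna, the sliding clamp, had -0.06 ± 0.045 and was not called (adjusted p = 0.385). The 2 that rose were Rrm1 (0.21) and Rfc1 (0.28).

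Among 18 E2F, RB and DREAM regulators 4 fell (22.2%) and 2 rose (11.1%), with a median of -0.045 (-0.006 without shScr replicate 1). E2f8 (-0.86 ± 0.13) and E2f7 (-0.58 ± 0.12), repressors that are themselves cell cycle targets, fell, and so did Mybl2 (-0.51) and Tfdp1 (-0.14). E2f5 (0.53 ± 0.1) and the pocket protein Rbl2 (0.30 ± 0.052) rose. The number that fell was 2 without shRela-2 replicate 2 or shScr replicate 3, and 4 rose without shScr replicate 2 and with the block.

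Of 35 CDK inhibitors and p53 targets 7 rose (20%) and 8 fell (22.9%), with a median of 0.022 (-0.022 without shScr replicate 1). Cdkn1a, the p21 inhibitor of cyclin-dependent kinases, stood at 919, 1006 and 967 CPM in shScr and 1080.0, 1255 and 1112 CPM with shRela-2. Its log2 fold change was 0.25 ± 0.063 (SE; adjusted p = 0.0107), and every shRela-2 sample lay above the highest control. With shRela-1 it was 0.13 (adjusted p = 0.169), and the difference between the hairpins was 0.12 (adjusted p = 0.142). The block called both (adjusted p = 0.00192 and 0.00191). Trp53inp1 (0.60 ± 0.08), Ei24 (0.47 ± 0.059) and the death receptor Tnfrsf10b (0.21 ± 0.033), all p53 targets, rose, while Trp53, the gene of p53, fell (-0.26 ± 0.039). Cdkn2a, which gives p16 and p19, had -0.09 ± 0.14 and was not called (adjusted p = 0.67, and 0.0204 with the block).

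Genes of cholesterol synthesis and uptake fell more often than they rose. Of 29, all tested, 18 fell (62.1%) and 2 rose (6.9%), with a median of -0.326. Without shScr replicate 1, 14 fell, and without shScr replicate 2, 1 rose. Of the 26 members without the 3' UTR heptamer 15 fell. Msmo1, a sterol demethylase, stood at 107, 88.4 and 88.8 CPM in shScr and 37.6, 32.2 and 38.8 CPM with shRela-2 (-1.38 ± 0.088, adjusted p = 3.64e-06). Sqle, which oxidises squalene, stood at 112, 105 and 102 CPM in shScr and 64.3, 61.8 and 65.4 CPM with shRela-2 (-0.74 ± 0.051, adjusted p = 5.44e-06). Both hold the heptamer, and in both the shRela-2 samples lay far below the controls. Hsd17b7 (-0.51 ± 0.06) and the mevalonate kinase Mvk (-0.34 ± 0.051), without the heptamer, also fell, as did Fdft1 (-0.50), Lss (-0.55), Hmgcs1 (-0.37) and the sterol regulator Srebf2 (-0.25). The sterol element TCACNCCAC, on both strands, stands in 1 of 21 promoters of the list, that of Hmgcs1, and in 1.41% of tested genes.

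Of 16 genes of fatty acid synthesis 5 fell and 5 rose (31.2% each). The median was -0.024, and it ran from -0.141 without shRela-2 replicate 1 to 0.050 without shScr replicate 1. Acly, which makes cytosolic acetyl-CoA, stood at 319, 304 and 319 CPM in shScr and 208, 204 and 208 CPM with shRela-2 (-0.60 ± 0.041, adjusted p = 4.7e-06). Me1, which supplies NADPH, had -0.63 ± 0.051 (adjusted p = 1.3e-05) and the desaturase Fads1 -0.76 ± 0.099 (adjusted p = 0.000254), and both hold the heptamer. Lpin1 (0.35) and Fasn (0.19) rose. The number that fell was 3 without shRela-2 replicate 2, shRela-2 replicate 3 or shScr replicate 1. When shRela-2 replicate 2 was left out 3 rose, and when shScr replicate 2 was left out 2 rose.

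Collagens and other matrix genes, all 59 tested, gave 9 that rose (15.3%) and 7 that fell (11.9%), shares near or below those of all genes, and 18 and 21 with the block. The median was -0.045, and 0.021 without shScr replicate 3. Thbs1, thrombospondin 1, stood at 22448, 23479 and 23821 CPM in shScr and 27676, 28848 and 27282 CPM with shRela-2 (0.26 ± 0.041, adjusted p = 0.000726). Fbln2, a fibulin of elastic fibres, stood at 6208, 5553 and 5780.2 CPM in shScr and 4713, 4355 and 4576 CPM with shRela-2 (-0.36 ± 0.057, adjusted p = 0.000852). Col5a3 (-0.57) and the proteoglycan Bgn (-0.18) fell, Fbn2 (0.56) and Col11a1 (0.44) rose, and Col1a1 had 0.01 ± 0.043 (adjusted p = 0.859). The number that fell was 4 without shRela-2 replicate 2 or shScr replicate 3, and the number that rose was 5 when shRela-2 replicate 2 was left out.

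Of 23 myofibroblast and contractile genes 5 fell (21.7%) and 1 rose (4.35%), with a median of -0.126 (-0.078 without shScr replicate 1), and the block called 14 that fell and 3 that rose. Ankrd1, a target of YAP, stood at 461, 419.7 and 466 CPM in shScr and 216, 222 and 283 CPM with shRela-2 (-0.90 ± 0.1, adjusted p = 0.000112). Synpo2 (-0.45 ± 0.078), the focal adhesion protein Vcl (-0.29 ± 0.053) and Smtn (-0.40 ± 0.1) fell, and Itga11, a collagen receptor subunit, had -0.61. The 1 member with the 3' UTR heptamer fell (-0.612), and of the 22 without it 4 fell and 1 rose. Smooth muscle actin, Acta2, had -0.13 ± 0.075 and was not called (adjusted p = 0.245, and 0.00896 with the block). Smtn was no longer called without shRela-2 replicate 2 (adjusted p = 0.0551). The 1 call upwards held without shRela-2 replicate 1 and was lost without any other single library.

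Of 28 genes of NRF2 and oxidative stress 7 fell (25%) and 4 rose (14.3%), with a median of -0.050, and the block called 12 that fell and 7 that rose. Hmox1, the heme oxygenase, stood at 182, 195 and 170.0 CPM in shScr and 109, 116 and 106 CPM with shRela-2 (-0.73 ± 0.075, adjusted p = 5.54e-05). Nfe2l2, which encodes NRF2, stood at 104, 97.9 and 98.6 CPM in shScr and 73.2, 70.4 and 74.3 CPM with shRela-2 (-0.46 ± 0.043, adjusted p = 3.1e-05). Keap1, the inhibitor of NRF2, stood at 58.9, 58.5 and 58.5 CPM in shScr and 67.1, 69.9 and 70.2 CPM with shRela-2 (0.24 ± 0.032, adjusted p = 0.000367). The factor fell and its inhibitor rose. Txn1 (-0.33), Fth1 (-0.33) and the cystine carrier Slc7a11 (-0.94) fell, and Gsr (0.28) and Sod1 (0.22) rose. The 1 member with the 3' UTR heptamer fell (-0.940), and of the 27 without it 6 fell and 4 rose (median -0.040).

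Among 35 genes of the unfolded protein and integrated stress response 9 rose (25.7%) and 7 fell (20%), with a median of -0.013 (0.021 without shRela-2 replicate 1). The chaperones Hyou1 (0.44 ± 0.036), Dnajc3 (0.35 ± 0.037) and Hspa5 (0.21 ± 0.038) and the degradation factor Herpud1 (0.59 ± 0.076) rose. Fallen members included the stress kinase Eif2ak3 (-0.34 ± 0.049), Atf4 (-0.23), Ddit3 (-0.44) and Trib3 (-0.75). The block called 15 that fell.

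Lysosomal genes leaned upwards: 12 of 35 rose (34.3%) and 4 fell (11.4%), with a median of 0.070. Neu1, a sialidase, stood at 30.1, 28.8 and 31.8 CPM in shScr and 51.3, 49.4 and 48.8 CPM with shRela-2 (0.72 ± 0.05, adjusted p = 5.44e-06). Ostm1, a subunit of the chloride exchanger of lysosomes, stood at 44.1, 44.6 and 42.6 CPM in shScr and 83.5, 72.4 and 75.1 CPM with shRela-2 (0.81 ± 0.053, adjusted p = 4.01e-06). Glb1, the beta-galactosidase behind the usual stain for senescent cells, stood at 99.3, 87.9 and 91.1 CPM in shScr and 62.6, 54.8 and 64.1 CPM with shRela-2 (-0.62 ± 0.068, adjusted p = 8.39e-05), lower in every shRela-2 sample. The 3 members with the 3' UTR heptamer, Glb1, Lipa and Ctsb, all fell, and of the 32 without it 12 rose and 1 fell.

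**Figure D4:**
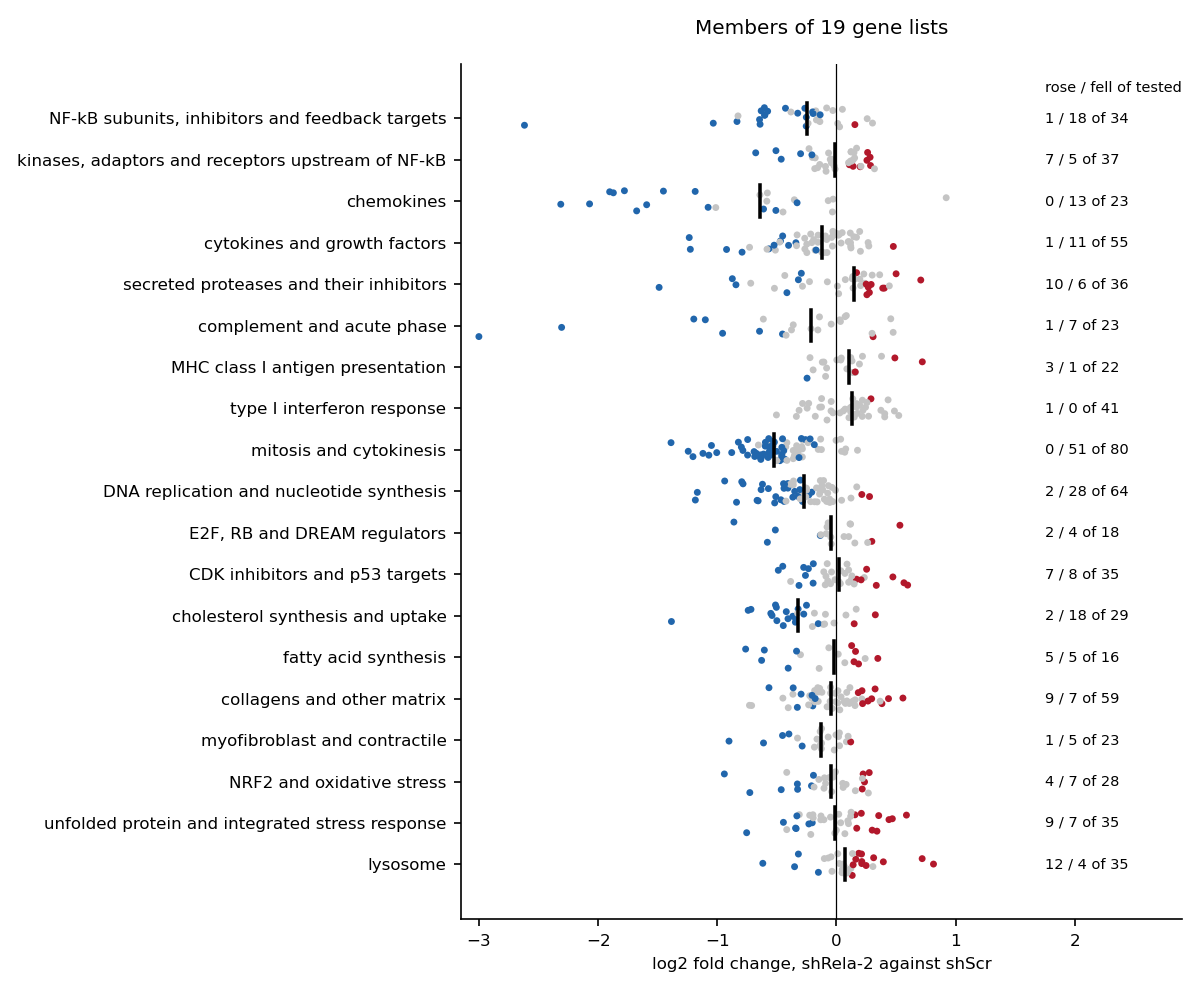
Log2 fold change with shRela-2 against shScr (x axis) of the tested members of 19 lists, with red points for genes that rose, blue for genes that fell and grey for genes not called, and a black bar at each median (Lcn2 is drawn at the left edge). The bars lie lowest for chemokines (-0.642) and mitosis (-0.525), and near 0 for the p53 list (0.022), matrix (-0.045) and lysosome (0.070).

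Rises were smaller than falls. The 15 largest rises, taken in the same way, ranged from 0.90 (Pik3ip1) to 1.93 (Hist1h2bg) in log2 fold change. Hist1h2bg, a histone H2B gene, stood at 1.28, 1.42 and 1.19 CPM in shScr and 11.2, 1.95 and 1.798 CPM with shRela-2. shRela-2 replicate 1 alone was far above the others, and the gene was not called by limma-voom (adjusted p = 0.176), or without any 1 shScr replicate (adjusted p = 0.0793 to 0.105) or shRela-1 replicate 3 (adjusted p = 0.0541). Without shRela-2 replicate 1 its log2 fold change was 0.53. Lce1h, of a family known from the cornified envelope of skin, stood at 9.69, 10.1 and 8.95 CPM in shScr and 27.9, 22.5 and 26.4 CPM with shRela-2 (1.42 ± 0.11, adjusted p = 1.31e-05). Sprr3, another gene of the cornified envelope, stood at 2.91, 4.195 and 3.497 CPM in shScr and 10.1, 9.398 and 8.49 CPM with shRela-2 (1.39 ± 0.16, adjusted p = 0.000123), and Lce1f had 1.32 ± 0.15. Lce genes are near-identical copies, between which reads could be split. C1qtnf6, a secreted C1q/TNF-related protein, stood at 63.1, 54.5 and 58.9 CPM in shScr and 133, 116 and 109 CPM with shRela-2 (1.02 ± 0.072, adjusted p = 5.88e-06).

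The remaining ones were Tdrp (1.16), Cend1, a neuronal gene of cell cycle exit (1.13), Ildr2 (1.12), the potassium channel Kcnk1 (1.09), the CNTF receptor Cntfr (1.04) and the proteoglycan Bcan (1.03). They also held the cadherin-related Cdhr1 (0.97), the nucleotidase Entpd6 (0.95), the dehydrogenase Aldh5a1 (0.94) and Pik3ip1, an inhibitor of PI3 kinase (0.90). Ildr2 is the only gene among these 15 with the heptamer.

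Whether shRela-2 differs from shRela-1 was tested directly between the 6 hairpin samples. Of the genes tested 6134 differed (39.9%), 3071 that were higher with shRela-2 (20.0%) and 3063 that were lower (19.9%). By more than 2-fold 222 were higher (1.44%) and 316 lower (2.06%). With shRela-1 against the same controls 1887 genes rose (12.3%) and 1912 fell (12.4%). Genes that fell with shRela-2 and were also lower than with shRela-1 numbered 1744 (11.3% of those tested), and genes that rose and were higher numbered 1498 (9.75%). Of the named 15, 13 that fell were lower and 13 that rose were higher than with shRela-1. The 2 contrasts share the shRela-2 samples, so these counts are a description.

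Between the hairpins, medians are set against 0.004 over all genes tested, and shares against 20.0% higher and 19.9% lower. With shRela-2, 72 of the 80 mitosis genes (90%) were lower than with shRela-1 and 1 was higher, with a median difference of -0.882. Against shScr 35 rose and 2 fell with shRela-1 (median 0.358), where 0 rose and 51 fell with shRela-2. Replication genes were lower in 51 of 64 (79.7%) and higher in 3, with a median difference of -0.534, against 24 that rose and 2 that fell with shRela-1. Cholesterol genes were lower in 19 of 29 and higher in 3 (median difference -0.518), contractile genes lower in 18 of 23 and higher in 1 (-0.402, with 12 that rose with shRela-1), and chemokines lower in 14 of 23 and higher in 1 (-0.869, close to the mitosis list). For the NF-kB list 11 of 34 were lower (32.4%) and 3 higher (8.82%), beside 10 that fell and 3 that rose with shRela-1. Interferon genes were higher in 8 of 41 (19.5%, near the share of all genes) and lower in 1 (2.44%), and MHC class I genes higher in 7 of 22 (31.8%) and lower in 1 (4.55%).

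**Figure D5:**
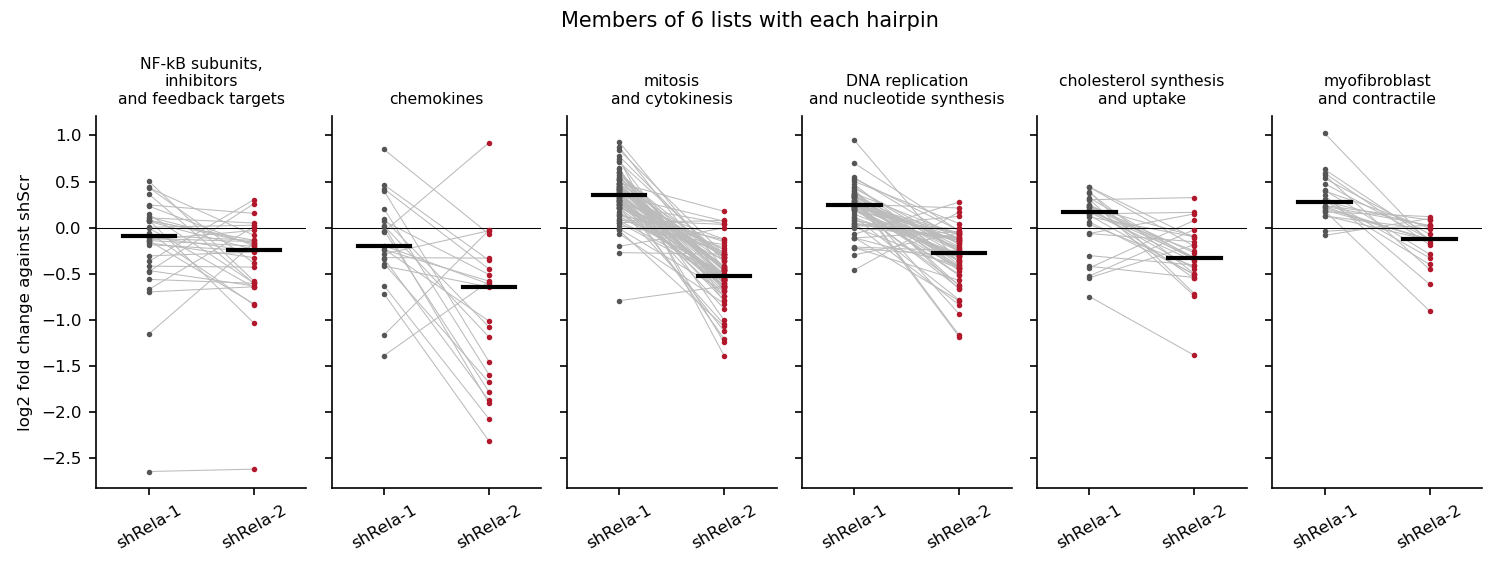
Log2 fold change against shScr (y axis) of the members of 6 lists with shRela-1 (grey) and shRela-2 (red), each line 1 gene and each bar a median; both hairpins are set against the same 3 controls. The medians of mitosis lie at 0.358 and -0.525, those of replication at 0.242 and -0.270 and those of chemokines at -0.194 and -0.642.

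Single genes moved in opposite directions. The lowest against shRela-1 was Rab3c, a small GTPase of secretory vesicles, with a log2 difference of -2.64 ± 0.16 (SE; adjusted p = 5.05e-07), -1.32 with shRela-2 and 1.32 with shRela-1. Hmox1 differed by -2.21 ± 0.077 (adjusted p = 2.04e-08), with -0.73 and 1.48. Next came Tspan2 (-2.16), Nuf2 (-2.13) and Papss2 (-1.97), and of these 5 genes Hmox1 is the one without the 3' UTR heptamer. At the other end, Adam9, a membrane sheddase, differed by 2.22 ± 0.037 (adjusted p = 2.74e-10), with 0.39 and -1.83. C1d (2.10), Lce1h (2.04), the peroxidasin Pxdn (2.01) and Rtn4 of the endoplasmic reticulum (1.93) followed. Against shScr, C1d, Pxdn and Rtn4 were low with shRela-1, at -1.64, -1.48 and -1.80, beside 0.46, 0.53 and 0.13 for shRela-2. The call of Rtn4 with shRela-2 against shScr was lost in the 6 samples alone (adjusted p = 0.0922). It was also lost without any 1 library except shScr replicate 2 (adjusted p = 0.0628 to 0.18). None of these 5 highest genes holds the heptamer in the 3' UTR. Where the hairpins did not differ past the threshold, as for Nfkbia, Relb, Nfkb1, Inhba, Mmp9 and Ostm1, the differences were -0.17 ± 0.063, -0.04 ± 0.083, 0.04 ± 0.039, -0.12 ± 0.059, 0.05 ± 0.24 and 0.08 ± 0.052 (SE). With the block Nfkbia (adjusted p = 0.0222) and Inhba (adjusted p = 0.00466) were called lower with shRela-2.

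Markers of other cell types were checked beside these results. Of 13 fibroblast markers 3 fell, the intermediate filament Vim (-0.39 ± 0.039), Prrx1 (-0.32 ± 0.039) and Twist2 (-0.50 ± 0.13), and Twist1 rose (0.18 ± 0.049), a call lost without shScr replicate 1 (adjusted p = 0.0668) or shRela-2 replicate 2 (adjusted p = 0.072). The block called 5 that fell and 2 that rose. Of 24 macrophage and blood markers 21 were tested, 1 fell (Itgam, -0.54, adjusted p = 0.0171) and none rose by edgeR, DESeq2 or limma-voom (0 were higher at an unadjusted p under 0.05). The number that fell was 0 without shRela-2 replicate 1, shRela-2 replicate 3 or shScr replicate 2, 2 without shRela-2 replicate 2 or shRela-1 replicate 2, and 13 with the block. Their summed level was 555, 828 and 604 CPM in shScr and 476, 737 and 529 CPM with shRela-2, lower in each same-numbered pair, and the globins Hba-a1 and Hbb-bs were at 0. The part of these cells in the falls of chemokines and complement genes was not tested.

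Endothelial markers gave 0 calls among 9 tested, also by DESeq2 and limma-voom and at an unadjusted p under 0.05, with summed levels of 11.2 to 13.4 CPM in shScr and 11.4 to 13.7 CPM with shRela-2. Epithelial markers summed to 52.6 to 59.2 CPM and 58.2 to 66.9 CPM, with Sprr3 higher and Ivl, involucrin, lower (-0.67 ± 0.16), and the number that rose was 2 with the block or without shRela-1 replicate 1. Skeletal muscle markers summed to 293 to 540 CPM and 229 to 378 CPM. Acta1, skeletal actin, was the muscle marker that fell (-0.74 ± 0.25, adjusted p = 0.0428), a call lost by DESeq2 and limma-voom and without any 1 library except shScr replicate 2 and shRela-1 replicates 1 and 2, and the block called 2 that fell. Neural markers summed to 235 to 251 CPM and 260 to 287 CPM, among them Tubb3, a tubulin, which stood at 87.1, 86.2 and 85.9 CPM in shScr and 132, 128 and 121 CPM with shRela-2 (0.56 ± 0.045, adjusted p = 1.29e-05). Adipocyte markers gave 0 calls among 6 tested (0 at an unadjusted p under 0.05, and 0 by DESeq2 and limma-voom), but 2 rose and 1 fell with the block and 1 rose without shScr replicate 2. They summed to 32.3 to 51.7 CPM and 40.6 to 51.7 CPM with Lep at 0, and cartilage and bone markers summed to 61.1 to 92.6 CPM and 63.3 to 101 CPM. Matn3, a cartilage protein at 0.359, 0.341 and 0.334 CPM in shScr and 0.444, 0.788 and 0.872 CPM with shRela-2, was called (1.03 ± 0.3, adjusted p = 0.0248), and that call was lost without any 1 of the compared libraries except shRela-2 replicate 1 (adjusted p = 0.0521 to 0.0942), while the block called 2 that rose. The ranges of the summed levels overlapped between the groups for each of these types except the neural one. Within the 3 same-numbered pairs, though, the sums of muscle markers were lower with shRela-2 in all 3. Those of epithelial, neural, adipocyte and cartilage markers were higher in all 3, for adipocyte markers in 1 pair by less than the rounding (51.7 CPM on both sides). Endothelial markers were higher in 2 pairs. Sums weigh the most abundant genes, and the neural and epithelial sums include Tubb3 and Sprr3. The median log2 fold change of the epithelial markers tested was -0.221, the other direction, and that of the neural markers 0.128. With the block 1 neural marker fell. The part of these shifts in the results was not tested.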

How the data were processed

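RNA sequencing of 9 samples was used, 3 per group. The values are raw counts by gene symbol as the authors deposited them, 1 column per sample, none pooled, and all columns were used. Per the submitters' processing notes featureCounts 1.4.6 (Subread), Bowtie2 2.2.6, TopHat2 2.0.14 and mm10 were used, with no settings given. Whether read pairs were counted as 1 is not stated there. Of counts from 1 to 10, 66.2% to 70.2% were even in each sample, against 48.2% to 51.1% of counts over 100 and up to 1000, so low counts may hold both mates of a pair, which was not tested. The library kit (TruSeq RNA v2, per the labels' protocols) does not mark strand, so reads of a gene and of its antisense neighbour are mixed.

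Samples were grouped by title. Genes passed filterByExpr, totals were scaled by TMM, and edgeR 4.0.16 in R 4.3.3 fitted group means over all 9 samples (glmQLFit, glmQLFTest, two-sided, Benjamini-Hochberg adjusted p under 0.05 over 15369 genes). Each SE was derived from this fit, as the absolute log2 fold change divided by the square root of the F statistic. Scripts were tested on simulated data. Alternatives were the replicate block, the 6 samples alone, DESeq2 1.42.0 (size factors and Wald test), limma-voom (limma 3.58.1), total counts, filters and each sample left out. Replicate numbers, given in the titles, paired the samples: deviations from the group means correlated at 0.4, 0.304 and 0.189 in same-numbered shScr and shRela-2 samples and from -0.306 to 0.0459 otherwise. The blocked value stands beside a result against shScr where it changes a call or moves a count by over 1.5 times.

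The comparison, the 27 lists and the heptamer were chosen with earlier results of these data known. Named were Rela, Cdkn1a, Cxcl14, 15 genes with the largest rise and 15 with the largest fall among called genes whose mean log2 CPM reached 1 and whose groups were apart (clone and model numbers passed over), the 5 highest and 5 lowest against shRela-1, and 4 members per list by smallest p. Other members named as examples were chosen after their values were seen. Some genes that this rule picks are not reported here. 3' UTRs came from GENCODE M21, and promoters from RefSeq (GRCm38.p6), which held 12002 of the tested genes. For each symbol the longest 3' UTR among its protein-coding transcripts was taken, which need not be the one these cells express.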

Additional observations from a re-analysis of the deposited data

How the results depend on the processing

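With the replicate block 3414 genes rose and 3416 fell, 51 and 182 of them by more than 2-fold, and 4738 of the 4742 genes called without it were among them. Against shRela-1 the block gave 3968 higher and 4006 lower, and for Rela a log2 fold change of -2.62. Of the counts over all genes, 1 moved by over 1.5 times: of genes with a mean of at least 1 CPM, 15 rose more than 2-fold, against 41, because fewer genes of low level were tested. Without 1 library the genes that rose numbered 1863 to 2341 and those that fell 1903 to 2416, in both cases fewest without shScr replicate 3. More than 2-fold rises numbered 29 to 43 and falls 141 to 174, genes higher than with shRela-1 2579 to 3073 and lower 2659 to 3079, and Rela ran from -2.66 to -2.59. The 6 samples alone gave 2262 and 2299, DESeq2 2491 and 2445, and scaling by total counts 2615 and 2191. Of the values given for single genes only Acan, a cartilage marker that was not called (-0.28), changed sign: it ran from -0.525 without shScr replicate 1 to 0.019 without shScr replicate 2, and the cause was not tested. Among single named genes, 7 results lost and 22 gained their call under another setting, and 35 and 5 when 1 library was left out. Of the medians of 27 lists, 13 reached 0 or changed sign without 1 library, and 6 others moved by over 1.5 times. Hist1h2bg was not called in the 6 samples alone (adjusted p = 0.0653). The contrast between hairpins was not run on 6 samples. Counts of low genes limit what could be called, as for Lcn2, Cxcl1 and Cxcl2.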

Other observations

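Other gene families were looked at after their values had been seen, because members stood among the largest rises, so their counts are descriptions. They stand against 15.4% of all genes tested that rose and 15.4% that fell, or 22.2% each with the block. Between the hairpins they stand against 20.0% higher and 19.9% lower. Of 68 histone genes of the Hist1h to Hist4h clusters 39 were tested, 7 rose, a share near that of all genes, and 0 fell. The median log2 fold change was 0.243, and with the replicate block 10 rose and 1, Hist1h2bf, fell. At an unadjusted p under 0.05 edgeR had 1 lower, Hist1h2bf. Hist1h1c, a linker histone, stood at 114, 108 and 114 CPM in shScr and 159.9, 157 and 154 CPM with shRela-2 (0.49), and Hist1h2bc at 128, 122 and 107 CPM and 158, 148 and 159 CPM (0.38). The groups did not overlap for either gene. With shRela-1 1 of the 39 rose and 2 fell, and 13 were higher with shRela-2 than with shRela-1 and 1 was lower. Histone genes are close copies between which reads could be split.

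The Lce and Sprr genes lie in the epidermal differentiation complex. Of 36, 11 were tested, 5 rose and 0 fell by edgeR (7 and 1, Sprr2h, with the block), with a median of 0.559, and 1 was lower at an unadjusted p under 0.05, Sprr2h. Lce1l stood at 0.160, 0.267 and 0.175 CPM in shScr and 1.02, 1.17 and 0.979 CPM with shRela-2 (2.37). Sprr2k, at 75.7, 55.4 and 70.1 CPM and 81.6, 59.8 and 92.1 CPM, was not called without the block, but was with it (adjusted p = 0.0019). With shRela-1 3 of the 11 rose and 2 fell, and 6 were higher with shRela-2 than with shRela-1 and 3 lower. Ivl, a cornified envelope gene outside these families, fell (-0.67).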
